A study of Mus musculus with 9 samples.

Results

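hiPS-MSC-EVs, extracellular vesicles secreted by mesenchymal stem cells that had been derived from human induced pluripotent stem cells, were compared with their carrier, phosphate-buffered saline (PBS), in oxygen-starved HT22 cells, and the comparison is described here across genes. HT22 is an immortalised line from mouse hippocampal neurons and was wild type in every library. All 6 libraries compared came from cells held for 2 h without oxygen and glucose (OGD) and then returned to oxygen for 24 h. The 3 OGP libraries had PBS during reoxygenation and the 3 OGE libraries had hiPS-MSC-EVs. Poly(A) RNA was sequenced, and values are FPKM, the authors' fragment counts scaled by gene length and by library size. Of 54532 genes in the mouse annotation, 13245 were tested, those whose average reached 0.5 FPKM across the 9 libraries of the series, which include 3 of untreated control cells. Control levels of some genes are given beside the others for description, and no difference from untreated cells was tested here. The labels do not say whether the 3 libraries of a group came from separate cultures, so p-values measure the spread between libraries, which may be technical. The labels do not give the vesicle dose of these libraries. The labels name standard medium, whereas the methods describe exosome-free serum, serum-free medium and vesicles as separate media, so a difference in serum between OGP and OGE cannot be told apart from the vesicles.

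The line expressed few genes of mature neurons in these libraries. Only 5 of 19 neuron markers passed the expression filter, and Rbfox3, Snap25, Stmn2, Dcx and the neurofilament genes Nefl and Nefm stayed at or near 0. The glutamate receptor genes Gria1, Gria2, Grin1 and Grin2b were likewise at or near 0. Summed over the 19 neuron markers, the level was 36.0 to 39.8 FPKM in OGP and 54.2 to 59.7 FPKM in OGE, with Ncam1 and Uchl1 higher in OGE by 0.90 ± 0.09 and 0.62 ± 0.14 on the log2 scale (± SE). The Uchl1 call was lost without OGP 1, OGP 2 or OGE 2. Map2, a microtubule protein of dendrites, went the other way, with 1.95, 2.45 and 1.98 FPKM in OGP and 1.32, 1.47 and 1.21 in OGE (-0.51 ± 0.15, adjusted p 0.0375), a difference under the 1.5-fold limit. Map2 was called lower by voom, with a pseudocount of 0.1 and with the length trend described further down removed. Defining microglia markers (Ptprc, Cx3cr1, Itgam, C1qa) and the astrocyte markers Gfap and Aqp4 were also at or near 0. Of 9 astrocyte markers 4 were tested and all were called, with Sox9 (1.43 ± 0.09) and Gja1 (1.11 ± 0.10) higher and Aldoc (-0.68 ± 0.14) and Slc1a3 (-0.64 ± 0.13) lower, and the summed level was 22.4 to 23.5 FPKM in OGP and 40.0 to 48.4 FPKM in OGE. The Slc1a3 call was lost without OGP 2 or OGE 3. Of 11 microglia markers 3 were tested, of which Tmem119 was lower (-0.90 ± 0.12) and Trem2 higher (0.63 ± 0.17), and the summed level was 19.7 to 22.5 FPKM in OGP and 11.5 to 13.0 FPKM in OGE. The Trem2 call was lost without control replicate 3 and without any 1 of the 6 libraries other than OGE 3. Of 14 mesenchymal stromal markers, 11 were tested, 2 were higher (1 without OGP 2) and 3 lower, and their summed level was 790 to 858 FPKM in OGP and 542 to 652 FPKM in OGE. The median log2 fold change of the 11 was -0.05. The sum includes Acta2, whose mean was 275.5 FPKM in OGP and 89.7 FPKM in OGE. The part of these markers in the results below was not tested.

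Several systems that cells use after oxygen returns are followed below. Type I interferon is secreted when sensors detect RNA or DNA in the wrong place, and its receptor activates transcription factors, among them STAT2 and IRF9, which bind a promoter element called ISRE and turn on antiviral genes. Immediate-early genes such as Fos and Egr1 are switched on within minutes of growth factor, serum or stress signals and encode transcription factors, among them the AP-1 subunits. HIF-1 is the factor that turns on glycolysis, vessel growth and matrix genes when oxygen falls, and STAT3 carries signals from the IL-6 family of cytokines.

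In OGE 1075 genes differed from OGP (DEGs, adjusted p of at most 0.05 in limma and a change of at least 1.5 fold), which is 8.12% of the genes tested. Of these 449 were higher in OGE (3.39%) and 626 lower (4.73%). Every count of called list members below is to be read beside these shares. Fold changes are differences of log2(FPKM + 0.5), which understates the change of genes near the lower limit. The falls were larger than the rises. A change of at least 2 fold was seen for 135 genes upwards and 258 downwards, of at least 4 fold for 10 and 35, and of at least 8 fold for 1 and 9. The median over all tested genes was 0.0039. Among the 457 genes above 100 FPKM, 6 were higher and 38 lower. Because these are bulk libraries, fewer cells that express a gene and less RNA per cell cannot be told apart. The groups of 3 libraries did not overlap for 45.4% of all tested genes (all OGE above for 23.3%, all below for 22.0%), so a lack of overlap alone says little about a gene here.

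**Figure D1:**
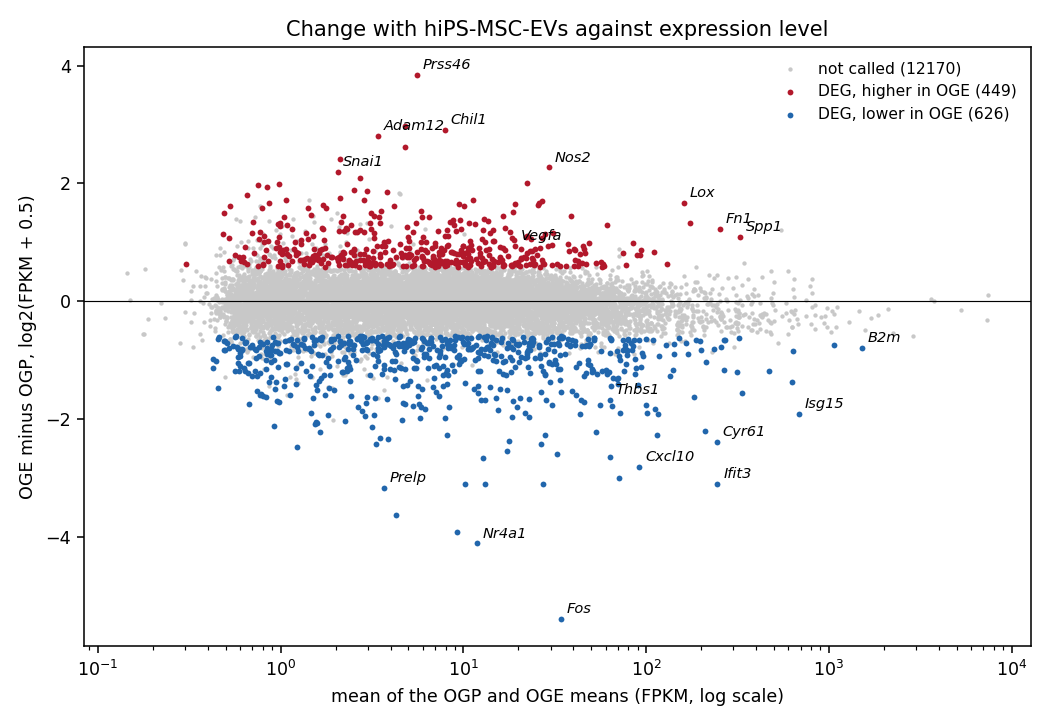
Mean FPKM over the 6 libraries (x axis, log scale) against the OGE minus OGP difference in log2(FPKM + 0.5) (y axis) for the 13245 tested genes, with DEGs higher in OGE in red, DEGs lower in blue and other genes in grey. Fos lies lowest at -5.39 and Prss46 highest at 3.85, and among abundant genes Isg15 and B2m lie below the line and Fn1 and Spp1 above it.

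The libraries held 16259448 to 19476806 reads in genes in OGP and 15026700 to 17368049 in OGE, and a gene at 0.5 to 0.6 FPKM had a median of 13 reads. On a principal component analysis of the 6 libraries the first component, with 55.2% of the variance, separated OGP from OGE. On the second, with 16.6%, OGE 3 stood at 23.3 and OGE 1 and OGE 2 at -7.0 and -19.2. Without OGE 3, 998 DEGs were called, 410 higher and 588 lower.

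Interferon and MHC class I genes were lower in OGE. Of 125 tested genes in lists of interferon and MHC class I biology, 94 were lower in OGE and 2 higher, against 4.73% and 3.39% of all genes, and their median log2 fold change was -1.09. All 3 OGE libraries lay below all 3 OGP libraries for 109 of the 125, against 22.0% of all tested genes. Without OGE 3, 91 of them were lower. Background knowledge of interferon signalling orders the genes from the sensors, through the cytokine and its transcription factors, to the effectors, and many effectors carry an ISRE in their promoter. The core of that element, GAAANNGAAA, was searched on both strands in RefSeq promoters (250 bases before to 50 bases after the start site, GRCm38.p6, the assembly of mm10), which were matched for 9194 of the tested genes. It was present in 3.13% of those promoters, in 41.8% of the promoters from the interferon and MHC class I lists (41 of 98), in 16.7% of promoters of all lower DEGs (71 of 426) and in 3.61% of promoters of higher DEGs (11 of 305). Among lower DEGs outside those lists the share was 9.86% (35 of 355). In all 32851 promoters of the table it was 3.44%. The lists were compiled from interferon and MHC class I biology, so their share is a property of the lists. A match describes letters in a window and is not evidence of binding.

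Stretches around the matches are shown for genes whose levels follow, in the gene's own direction from 5′ to 3′, with each match in capitals as it reads on that strand. Ifit3 is at chr19:34583353-34583436 (+), Ifit1 at chr19:34640765-34640833 (+), Isg15 at chr4:156200855-156200916 (-), Bst2 at chr8:71537567-71537622 (-) and Cxcl10 at chr5:92349073-92349122 (-). In Isg15 and Bst2 the matches overlap each other.
Ifit3: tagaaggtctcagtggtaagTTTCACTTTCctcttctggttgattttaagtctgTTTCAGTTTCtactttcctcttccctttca
Ifit1: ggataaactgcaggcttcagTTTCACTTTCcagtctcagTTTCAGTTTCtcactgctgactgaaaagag
Isg15: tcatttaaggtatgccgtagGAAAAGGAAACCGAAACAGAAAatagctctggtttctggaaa
Bst2: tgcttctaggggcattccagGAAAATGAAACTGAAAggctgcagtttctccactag
Cxcl10: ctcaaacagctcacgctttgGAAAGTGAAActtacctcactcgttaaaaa

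Of 14 genes for sensors of foreign RNA and DNA and their adaptors 6 were lower and none was higher. Tlr3, the endosomal receptor for double-stranded RNA, had 29, 31.5 and 32.1 FPKM in OGP and 9.73, 11.8 and 7.69 in OGE, and fell by 1.63 ± 0.19 (log2 fold change ± SE, adjusted p 0.000426). Dhx58 and Ifih1, cytosolic RNA helicases of the RIG-I family, fell by 1.58 ± 0.07 and 1.23 ± 0.12. Ddx58, which encodes RIG-I itself, fell by 0.89 ± 0.14. Ifnb1, the gene of interferon beta (chromosome 4, 88522025 to 88522774, minus strand), had 4.51, 6.27 and 7.37 FPKM in OGP and 1.64, 1.65 and 1.37 in OGE, a fall of 1.65 ± 0.16 (adjusted p 0.000151). The Ifnb1 groups did not overlap, and the control mean of 3.66 FPKM lay between them.

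Of 19 genes for interferon receptors and transcription factors, 7 were lower, 1 was higher and 11 were not called. Stat2, a factor activated at the receptor, had 35.7, 33.7 and 35.2 FPKM in OGP and 19.3, 17.4 and 16.7 in OGE (fell by 0.95 ± 0.10, adjusted p 0.000259). Irf7, the factor that amplifies interferon production, had 89.97, 85.8 and 84.1 FPKM in OGP and 25.4, 25.1 and 25.6 in OGE (fell by 1.75 ± 0.11, adjusted p 1.25e-05). Within each of these groups the 3 libraries lay close together and far from the other group. Irf9 fell by 0.65 ± 0.06, Irf5 by 1.12 ± 0.16 and Usp18, a protease that removes ISG15 and restrains the receptor, by 1.43 ± 0.09. The receptor chains Ifnar1 and Ifnar2 differed by 0.22 ± 0.08 and 0.10 ± 0.07, and the kinases Jak1 and Tyk2 by 0.16 ± 0.08 and -0.17 ± 0.12, none of them a DEG. Irf3, which starts interferon transcription before any is secreted, had 12.9, 13 and 12.7 FPKM in OGP and 10.4, 10.2 and 13.7 in OGE (adjusted p 0.38), with overlapping groups. The 1 higher member was Socs3, an inhibitor of cytokine receptors that is also a STAT3 target, at 24.1, 20.04 and 18 FPKM in OGP and 39.1, 38 and 44.8 in OGE. Among regulators that the study names for this comparison, Irf7 and Cited2 were lower, and Irf3 and Trim24 were not called (-0.10 ± 0.12 for Trim24). The study chose them on these samples, so their direction is not independent evidence.

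The effectors fell almost throughout. All 18 tested interferon-induced GTPases, all 8 genes of the OAS family and 35 of 38 genes of the ISG15 system and related effectors were lower, with medians of -1.79, -1.16 and -1.18. Ifit3, a protein that binds viral RNA together with Ifit1, had 409, 457 and 454 FPKM in OGP and 57.3, 58.1 and 39.4 in OGE (fell by 3.10 ± 0.14, adjusted p 3.25e-06), so that its mean was 8.52-fold lower in OGE. Ifit3 and Ifit3b are near-identical copies and may share reads, as may Tgtp1 and Tgtp2, Oas1a and Oas1g, Apol9a and Apol9b, the Gbp genes and the H2 genes. Mx1, a GTPase that traps viral nucleocapsids, had 16.7, 19.2 and 20.2 FPKM in OGP and 2.04, 1.97 and 1.26 in OGE. Isg15, a ubiquitin-like protein that is joined to other proteins, was abundant, with 1081, 1128 and 1043 FPKM in OGP and 289, 259.8 and 320.4 in OGE (fell by 1.91 ± 0.17, adjusted p 9.2e-05). Bst2, which tethers budding virus to the cell surface, had 912, 894 and 927 FPKM in OGP and 344, 354 and 361 in OGE. No OGE library reached the lowest OGP library for any of these genes. Among the OAS genes, which make the messenger that activates RNase L, the falls were narrow, from 1.01 for Oas1c to 1.44 for Oas3. Other large falls were those of Cmpk2 (2.37), Rsad2 (1.97) and Ube2l6 (1.92), an enzyme of ISG15 conjugation. In the IFIT and IFITM families 5 of 9 genes were lower and Ifitm10 was higher (1.16 ± 0.14). Ifitm3 at 1798, 1791 and 1913 FPKM in OGP and 1336, 1325 and 1284 in OGE had a log2 difference of -0.48 ± 0.09 and so lay within the 1.5-fold limit.

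**Figure D2:**
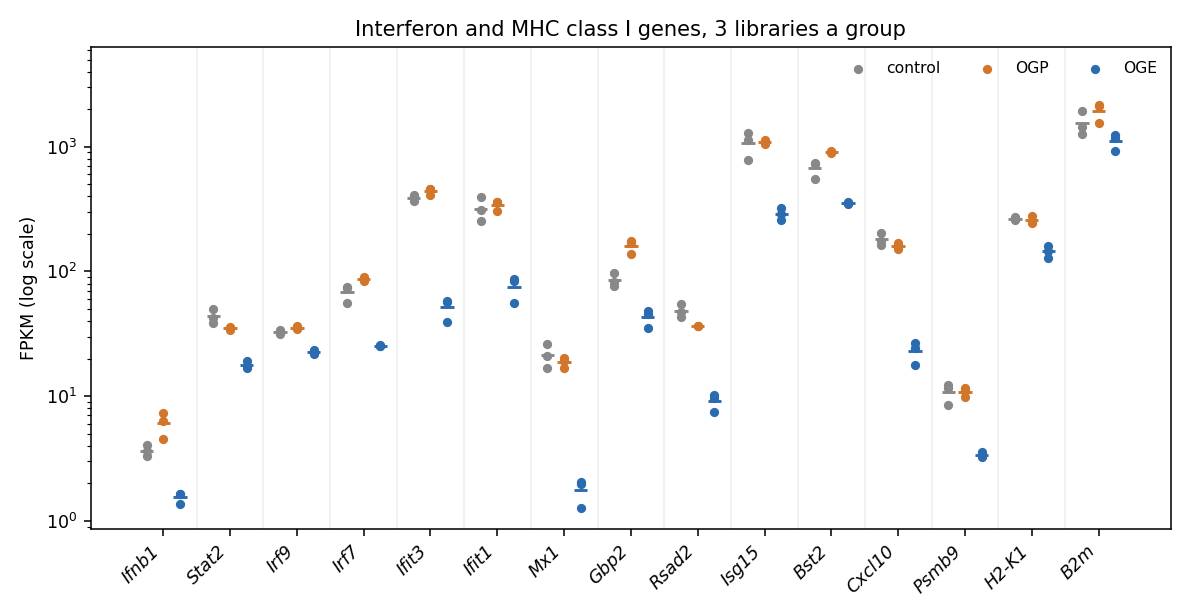
FPKM (log scale) of 15 interferon and MHC class I genes in each of the 9 libraries, 3 per group, with the horizontal bar at the group mean. For every gene drawn the 3 OGE libraries lie below the 3 OGP libraries, by the widest margin for Ifit3 and Mx1 and by the narrowest for Irf9, H2-K1 and B2m.

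Antigen presentation through MHC class I moved the same way and by less. Of 20 tested genes 16 were lower and none higher (median -0.81). The immunoproteasome subunits, which cut proteins into peptides for presentation, fell most: Psmb10 had 107, 114 and 121 FPKM in OGP and 30.7, 30.1 and 29.7 in OGE, and Psmb9 had 9.81, 11 and 11.7 in OGP and 3.28, 3.55 and 3.35 in OGE. The peptide transporter subunits Tap1 and Tap2 fell by 1.20 ± 0.12 and 0.80 ± 0.08. The heavy chain genes H2-K1 and H2-D1 fell by 0.83 ± 0.10 and 0.66 ± 0.11, calls that were lost with quantile normalization and, for H2-D1, with the length trend described further down removed. B2m, the light chain, had 1539, 2106 and 2156 FPKM in OGP and 1171, 1234 and 926 in OGE (fell by 0.79 ± 0.19, adjusted p 0.02). The B2m call was lost without OGP 2, OGP 3, OGE 1 or OGE 3 (adjusted p 0.0508 to 0.082), and with the length trend removed (adjusted p 0.078).

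Of 18 chemokine and cytokine genes 8 were lower and 1 higher. Cxcl10, a chemokine that draws T cells, had 159, 153 and 169 FPKM in OGP and 24.2, 26.7 and 17.7 in OGE (fell by 2.80 ± 0.14, adjusted p 5.45e-06). Ccl5 fell by 1.19 ± 0.12, Cxcl11 by 1.10 ± 0.19 and Tnfsf10, the death ligand TRAIL, by 2.04 ± 0.17. The monocyte chemokines were abundant and were not called: Ccl2 had 634, 680.0 and 683 FPKM in OGP and 613, 593 and 565 in OGE, and Ccl7 had 469, 564 and 637 in OGP and 815, 789.6 and 579.8 in OGE. Il6 was low in both groups (3.04 ± 0.959 and 3.81 ± 0.689 FPKM, mean ± SD, n = 3) and was not called either. Tnfsf9 was the 1 higher member (0.90 ± 0.14). In the NF-kB pathway 4 of 22 genes were lower and 2 higher, and without OGE 3 2 were lower. Vcam1, an adhesion molecule for leukocytes, had 5.65, 6.41 and 6.34 FPKM in OGP and 0.872, 0.912 and 0.697 in OGE. Nos2, the inducible nitric oxide synthase, moved the other way, with 10.1, 9.26 and 9.79 FPKM in OGP and 48.2, 54.9 and 43.9 in OGE (rose by 2.27 ± 0.09, adjusted p 1.74e-06). The Nos2 control mean was 54.2 FPKM.

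Immediate-early genes gave 5 of the 9 falls of at least 8 fold. The 3 lists of AP-1 subunits, of EGR, NR4A and IER genes and of feedback genes of the ERK pathway held 61 tested genes. Of these 22 were lower in OGE and 5 higher, against 4.73% and 3.39% of all genes (median -0.32). Fos (chromosome 12, 85473890 to 85477273, plus strand) had 69.4, 71.7 and 59.6 FPKM in OGP and 1.05, 1.26 and 1.01 in OGE, and fell by 5.39 ± 0.18 (adjusted p 8.57e-07), with a mean 60.5-fold lower. Fosb had 10.3, 9.19 and 5.76 FPKM in OGP and 0.144, 0.265 and 0.217 in OGE. Nr4a1, an orphan nuclear receptor, had 19.5, 26.6 and 22.6 FPKM in OGP and 0.783, 0.69 and 1.1 in OGE (fell by 4.11 ± 0.25, adjusted p 9.95e-06). No OGE library was above 1.26 FPKM for any of these genes, and no OGP library was below 5.76 FPKM. The control mean of Fos was 62.3 FPKM, near the OGP level, and that of Nr4a1 was 6.29 FPKM.

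The fall did not extend to every AP-1 subunit. Of 13 tested subunits Fos, Fosb, Jun and Jdp2 were lower and Fosl2 was higher. Jun had 44.1, 37.2 and 38.2 FPKM in OGP and 13.3, 13.2 and 13.6 in OGE (fell by 1.53 ± 0.15, adjusted p 0.000176). Junb, the most abundant subunit, had 148, 155 and 133 FPKM in OGP and 95, 92.5 and 114 in OGE, groups that did not overlap, but its difference of -0.53 ± 0.23 missed the test (adjusted p 0.136). Jund had 36.6, 30.3 and 35.8 FPKM in OGP and 29.6, 30.4 and 31.2 in OGE, with overlapping groups. Fosl2 had 12.3, 11 and 10.3 FPKM in OGP and 17.9, 17.8 and 19.2 in OGE (rose by 0.69 ± 0.09), and Fosl1 had 29.7, 25.4 and 26.5 in OGP and 39.4, 36.7 and 44.4 in OGE (0.55 ± 0.14, adjusted p 0.0203), under the 1.5-fold limit. Without OGP 1 or without OGE 2, 3 subunits were higher in place of 1, and with the length trend removed the Fosl2 call was lost.

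Among the EGR, NR4A and IER genes 14 of 29 were lower and 1 was higher. Egr1, a zinc finger factor, had 55.5, 57.2 and 56.6 FPKM in OGP and 9.38, 9.51 and 7.98 in OGE (fell by 2.59 ± 0.11, adjusted p 2.41e-06). Btg2, an antiproliferative factor, had 21.7, 26.4 and 23.7 FPKM in OGP and 2.66, 1.89 and 2.58 in OGE, and Ier2 181, 186 and 207 in OGP and 38.9, 37.3 and 41 in OGE. Zfp36, which marks cytokine mRNAs for decay, fell by 1.96 ± 0.16, and the Krüppel-like factors Klf2 and Klf4 by 1.83 ± 0.24 and 1.23 ± 0.15. Klf10, which is induced by TGF-beta, was the exception, with 8.56, 8.81 and 8.38 FPKM in OGP and 20.4, 21.7 and 19.3 in OGE (rose by 1.20 ± 0.07, adjusted p 8.74e-06). Arc, known from synapses, fell from a mean of 4.66 ± 1.02 to 0.918 ± 0.193 FPKM (SD, n = 3).

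Feedback inhibitors of the ERK pathway went in both directions. Of 19 genes 4 were lower and 3 higher, and with the length trend removed 2 were lower and 2 higher. Dusp1, a phosphatase of p38, JNK and ERK, had 46.7, 53.1 and 47.8 FPKM in OGP and 6.19, 4.18 and 5.81 in OGE (fell by 3.09 ± 0.16, adjusted p 6.41e-06). Spry1 and Spry2, which restrain receptor tyrosine kinase signals, fell by 1.74 ± 0.10 and 0.67 ± 0.12, the latter not called with the length trend removed. Dusp4 rose by 0.96 ± 0.17, and Areg, the EGF receptor ligand amphiregulin, had 3.91, 4.77 and 4.25 FPKM in OGP and 13.1, 15.1 and 15.8 in OGE. The cyclic AMP response element TGACGTCA (its own reverse complement) was present in the promoters of 8.16% of these immediate-early genes (4 of 49), in 1.64% of those of lower DEGs (7 of 426), in 1.64% of those of higher DEGs (5 of 305) and in 3.39% of all matched promoters of tested genes. The share of the immediate-early genes rests on 4 genes. Among the immediate-early genes lower in OGE the element was in 2 of 17 promoters. The CArG box (CC, a run of A or T, GG) was also searched. It was in 4.08% of the immediate-early promoters (2 of 49) and in 1.27% of all matched promoters of tested genes. The stretch of Dusp1, at chr17:26508588-26508635 (-), is printed with the match in capitals.
Dusp1: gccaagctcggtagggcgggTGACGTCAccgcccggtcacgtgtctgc

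**Figure D3:**
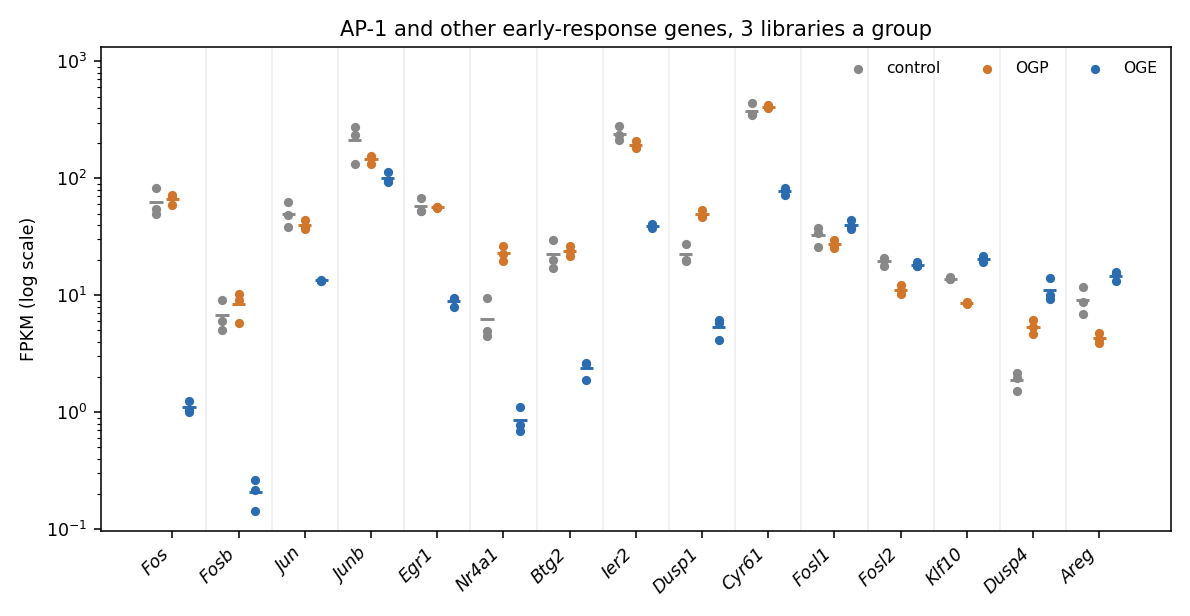
FPKM (log scale) of 15 early-response genes in each of the 9 libraries, 3 per group, with the horizontal bar at the group mean. Fos, Fosb and Nr4a1 drop furthest in OGE, Junb is lower by little, and Fosl1, Fosl2, Klf10, Dusp4 and Areg are higher in OGE than in OGP.

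Of 24 targets of YAP, the coactivator that responds to cell shape and density, 5 were lower. Cyr61 had 400.5, 407 and 421 FPKM in OGP and 82.8, 79.8 and 72 in OGE (fell by 2.38 ± 0.11, adjusted p 2.76e-06), and Ctgf had 43.7, 44.8 and 52.8 in OGP and 13.5, 16.1 and 11.5 in OGE, where its control mean was 7.95. No target was higher, though 1 was without OGP 1. Of 17 genes for actin and its regulator SRF, Acta2, smooth muscle actin, had 270.1, 270.0 and 287 FPKM in OGP and 90.9, 102 and 76.1 in OGE, and Cnn2 fell by 0.89 ± 0.11. The other 15 were not called.

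Of 23 tested IL-6 family receptors and STAT3 targets 10 were higher and 1 lower (median 0.56), against 3.39% and 4.73% of all genes. Stat3 itself had 12.1, 11.6 and 11.5 FPKM in OGP and 21.6, 22.7 and 21.8 in OGE (rose by 0.88 ± 0.07, adjusted p 3.1e-05). The receptor chains Osmr, for oncostatin M, and Il6ra rose by 1.30 ± 0.15 and 0.75 ± 0.09, whereas Il11ra1 fell by 0.89 ± 0.08. Chil1, a secreted chitinase-like protein of reactive cells, had 1.1, 1.83 and 1.56 FPKM in OGP and 14.1, 16.3 and 12.5 in OGE (rose by 2.90 ± 0.16, adjusted p 7.76e-06). Timp1, an inhibitor of matrix proteases, had 93.3, 101 and 102 FPKM in OGP and 252, 247 and 244 in OGE. The factor Cebpd rose by 0.94 ± 0.19 and the kinase Pim1 by 0.72 ± 0.20, a call that was lost when any 1 of the 6 libraries was left out. The summed level of the list was lower in OGE, at 2277 to 2372 FPKM in OGP and 2027 to 2059 FPKM in OGE, and most of it was Ifitm3, which is also an interferon-induced gene and was not called. For Stat3, Osmr, Timp1 and Chil1 the control means of 33.7, 19.4, 251 and 28.8 FPKM were all above the OGP libraries.

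Lists of hypoxia genes had positive medians, and few of their members passed both limits. Hif1a had 49.1, 56.7 and 55 FPKM in OGP and 98.6, 111 and 77.2 in OGE (rose by 0.82 ± 0.18, adjusted p 0.0134), a call that was lost without OGE 2 (adjusted p 0.0516). It was the only DEG of 9 genes for HIF subunits and oxygen sensing, and Egln1, the prolyl hydroxylase that marks HIF for decay, differed by 0.53 ± 0.10. Of 22 genes of glycolysis and glucose uptake, 2 were higher and 1 lower (9.09% and 4.55%, against 3.39% and 4.73% of all genes). For 16 of them all OGE libraries lay above all OGP libraries, against 23.3% of all genes (median 0.38). Hk2, the hexokinase that traps glucose, had 7.79, 5.94 and 6.43 FPKM in OGP and 11.6, 12.6 and 13.6 in OGE, and Pfkfb3, an activator of glycolytic flux, had 1.41, 1.25 and 0.886 in OGP and 2.51, 2.46 and 2.21 in OGE. Slc2a1, the glucose transporter GLUT1, had 16.1, 13.1 and 14.9 FPKM in OGP and 20.4, 22.9 and 22.8 in OGE, a difference of 0.57 ± 0.09 just under the limit. Pgk1 and Ldha, both abundant, differed by 0.41 ± 0.11 and 0.37 ± 0.09 and were not called. Removing the length trend left 4 glycolysis genes higher. The Gapdh value of OGP 1 stood apart (29.6, 4.53 and 5.77 FPKM in OGP), and Gapdh has many processed copies that may take its reads, so it is not used.

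Of 22 other hypoxia-induced genes 3 were higher and none lower, and without OGE 3 6 were higher. Vegfa, the main growth factor of blood vessels, had 13.9, 12.4 and 12.7 FPKM in OGP and 24.1, 23.6 and 28.7 in OGE (rose by 0.94 ± 0.09, adjusted p 0.000125). Lox, which crosslinks collagen, had 73.1, 80.3 and 76.2 FPKM in OGP and 242, 291 and 206 in OGE (rose by 1.67 ± 0.15, adjusted p 8.72e-05). Both Vegfa and Lox were separated completely between the groups, and the control mean was 11.8 FPKM for Vegfa and 295 FPKM for Lox. The core of the HIF binding site, ACGTG on either strand, was present in 26.5% of all matched promoters of tested genes. Among DEGs it was in 22.6% of promoters of higher DEGs (69 of 305) and 16.4% of those of lower DEGs (70 of 426). The share was 55.3% in the glycolysis and other hypoxia lists (21 of 38). These lists were compiled from genes of glycolysis and genes induced by hypoxia, so the 55.3% is a property of the lists. Stretches from Slc2a1 at chr4:119108689-119108733 (+) and Pgk1 at chrX:106186930-106186993 (+) are shown with the matches in capitals.
Slc2a1: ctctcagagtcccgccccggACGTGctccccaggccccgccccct
Pgk1: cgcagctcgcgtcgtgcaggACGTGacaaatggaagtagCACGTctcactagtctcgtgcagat

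Secreted matrix genes changed in both directions and by large amounts. Of 33 glycoproteins and proteoglycans 8 were higher and 6 lower. Fn1, fibronectin, had 187, 139.6 and 131 FPKM in OGP and 349, 372 and 341 in OGE (rose by 1.23 ± 0.13, adjusted p 0.000238), and Spp1, osteopontin, had 206, 190.2 and 231 in OGP and 456, 453 and 432 in OGE (rose by 1.10 ± 0.13). Vcan, versican, rose by 1.65 ± 0.16. Prelp, Ogn and Fmod, small leucine-rich proteoglycans, were lower, whereas Bgn, of the same family, was not called (0.57 ± 0.10). Prelp had 7.14, 7.02 and 6.85 FPKM in OGP and 0.31, 0.359 and 0.339 in OGE (fell by 3.17 ± 0.09, adjusted p 6.38e-07), Ogn had 87.8, 127 and 115 in OGP and 19.9, 20.9 and 11.9 in OGE, and Fmod fell by 1.61 ± 0.12. The basement membrane protein Nid2 fell by 1.68 ± 0.12 and Mgp, an inhibitor of calcification, by 2.43 ± 0.21. Thbs1, thrombospondin, which inhibits vessel growth, had 105, 92.2 and 92.4 FPKM in OGP and 29.7, 32.6 and 27.9 in OGE (fell by 1.67 ± 0.10, adjusted p 9.7e-06).

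Of 28 genes for collagens and their processing 4 were higher and 4 lower. Col3a1, Col6a1 and Col6a2 fell by 0.88 ± 0.11, 0.76 ± 0.10 and 0.94 ± 0.10, and Col6a3 rose by 0.74 ± 0.13, a call that was lost with the length trend removed. Of 26 matrix proteases and inhibitors 5 were higher and 4 lower, and without OGP 1 9 were higher. Adam12, a membrane metalloprotease, had 0.401, 0.531 and 0.506 FPKM in OGP and 6.13, 7.23 and 5.71 in OGE (rose by 2.80 ± 0.12, adjusted p 2.55e-06). Adamts1, an aggrecanase, fell by 1.46 ± 0.09 and Plau, the urokinase, by 0.74 ± 0.08. The transcription repressor Snai1 had 0.53, 0.339 and 0.379 FPKM in OGP and 3.56, 4.19 and 3.3 in OGE (rose by 2.19 ± 0.14, adjusted p 1.45e-05), and Zeb2 and Itga5, the fibronectin receptor chain, rose by 0.85 ± 0.12 and 0.89 ± 0.08.

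Growth factors of vessels and stroma went in both directions. Of 27 angiogenic factors and modulators 7 were higher and 7 lower. Besides Vegfa, Fgf2 had 0.76, 0.738 and 0.87 FPKM in OGP and 2.26, 3.13 and 2.38 in OGE, and Vegfc 1.24, 1.15 and 1.88 in OGP and 4.33, 3.54 and 3.53 in OGE. Angptl4, a lipase inhibitor that also acts on vessels, had 0.492, 0.706 and 0.542 FPKM in OGP and 2.73, 2.88 and 2.94 in OGE. Besides Thbs1, Sema3a and Angpt1 fell by 1.49 ± 0.14 and 0.79 ± 0.20, the latter not called without OGP 2, OGP 3, OGE 1 or OGE 3. Among 24 EGF, FGF and PDGF ligands and receptors 7 were higher and 5 lower, and without OGP 3 or without OGE 3 3 were lower. Pdgfa and Pdgfc rose by 0.84 ± 0.08 and 1.37 ± 0.12, and the receptor Fgfr1 by 0.91 ± 0.09. Hgf, hepatocyte growth factor, had 0.302, 0.365 and 0.351 FPKM in OGP and 1.58, 1.67 and 1.53 in OGE, whereas Egfr fell by 0.67 ± 0.15 and Nrg1 by 0.60 ± 0.12. The Egfr call was lost without OGP 2 or OGE 3 and the Nrg1 call without OGP 3 or OGE 3. Of 10 neurotrophic genes 2 were higher, Gdnf (16, 14 and 13.8 FPKM in OGP and 22.7, 21 and 23.9 in OGE) and its receptor Gfra1 (1.19, 1.15 and 1.12 in OGP and 3.27, 3.81 and 3.14 in OGE). The Gdnf call was lost without OGP 2, OGP 3 or OGE 3. Bdnf differed by -0.48 ± 0.10, within the 1.5-fold limit.

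Of 27 TGF-beta, BMP and ID genes 7 were higher and 3 lower, and 4 were higher without OGP 3 or with the length trend removed. Bmp4 fell by 1.41 ± 0.11 and Tgfb2 by 1.18 ± 0.13. Id1 and Id3, targets of BMP signals, parted, with 9.84, 11.3 and 8.26 FPKM in OGP and 16.1, 13.6 and 17.7 in OGE for Id1 and 15.3, 21.6 and 15.8 in OGP and 9.7, 10.9 and 13.1 in OGE for Id3. The control means of Id1 and Id3 were 95.6 and 230.4 FPKM, far above both groups. The Id1 call was lost without OGP 3 or OGE 3, and the Id3 call without any 1 of the 6 libraries or with the length trend removed. Of 21 Wnt pathway genes 3 were higher and 5 lower, with Wnt5a at -0.69 ± 0.09 and the factor Tcf7 at 0.69 ± 0.09. Notch2 was the 1 DEG of 10 Notch pathway genes (0.75 ± 0.09), and without OGP 1 another was lower.

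Lipid genes changed in both directions. Of 21 genes of fatty acid oxidation 4 were higher and 2 lower. Cpt1a, which admits fatty acids to mitochondria, had 19, 16.6 and 16.5 FPKM in OGP and 37, 40.4 and 38.5 in OGE (rose by 1.13 ± 0.08, adjusted p 1.86e-05), and Plin2, a lipid droplet coat protein, had 63.6, 63 and 68.3 in OGP and 114, 115 and 110.3 in OGE. The peroxisomal oxidase Acox2 had 5.47, 5.37 and 4.78 FPKM in OGP and 1.17, 1.45 and 1.36 in OGE (fell by 1.65 ± 0.11). Acsbg1, an acyl-CoA synthetase, had 0.869, 0.61 and 0.597 FPKM in OGP and 8.51, 7.72 and 10.6 in OGE (rose by 2.98 ± 0.17, adjusted p 9.31e-06). Of 29 cholesterol synthesis genes 1 was called, Insig1, which holds back SREBP (-0.62 ± 0.08), a call that was lost with the length trend removed. Without OGP 1 1 cholesterol gene was higher, and without OGP 2 2 were lower.

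Among 32 NRF2 and glutathione genes, which protect against oxidants, 4 were higher and 6 lower. Hmox1, heme oxygenase, had 67.2, 62.7 and 66.9 FPKM in OGP and 119, 113 and 131 in OGE (rose by 0.88 ± 0.08, adjusted p 0.000145). The glutathione transferase Gsta4 had 87.7, 97.5 and 111 FPKM in OGP and 39.3, 41.1 and 37.6 in OGE, and Gstm1 had 80.6, 86.8 and 89.9 in OGP and 34.9, 38.4 and 34.7 in OGE. Txnrd1 and Slc7a11 rose by 0.66 ± 0.07 and 0.71 ± 0.11 and Gpx4 fell by 0.65 ± 0.10, calls that were lost once the length trend was removed, after which 1 of the list was higher. Of 34 ATF4 target genes, which answer amino acid and ER stress, 1 was higher and 3 lower, with Chac1 and Trib3 falling by 0.95 ± 0.13 and 0.92 ± 0.13. The chaperone Hspa5 had 586, 553 and 629 FPKM in OGP and 580.3, 589 and 558 in OGE, with overlapping groups, and of 25 genes of the unfolded protein response 1 was called (Ern1, 0.68 ± 0.13), and not with the length trend removed. Of 21 heat shock genes 1 was called, Cryab, which fell by 1.11 ± 0.09.

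Genes of division and death gave small counts, to be read beside 3.39% higher and 4.73% lower of all tested genes. The shares higher and lower were 5.26% and 0% for replication genes and 8.70% and 4.35% for G1 genes. None of 32 genes of mitosis was a DEG by limma or by voom on recovered reads (median 0.03). In limma 5 of them had an unadjusted p under 0.05, against 4601 of all 13245 tested genes. Mki67, the proliferation marker, had 34.3, 35 and 33.5 FPKM in OGP and 43.3, 47.7 and 39.7 in OGE (difference 0.34 ± 0.18, adjusted p 0.216), where the groups did not overlap. Cdk1 had 59.7, 64.4 and 65.8 FPKM in OGP and 57.1, 52.6 and 50.1 in OGE (-0.25 ± 0.08). Of 38 replication genes Rrm2 and E2f2 were higher (0.62 ± 0.08 and 0.81 ± 0.13). Of 23 genes of G1, Ccnd1, cyclin D1, fell by 0.95 ± 0.15, while Ccng2 and Klf9, both associated with growth arrest, rose by 1.01 ± 0.14 and 1.20 ± 0.11. Of 30 genes of the BCL2 family and the caspases 1 was higher, the death activator Bcl2l11 (2.84, 3.17 and 3.13 FPKM in OGP and 4.98, 5.44 and 4.5 in OGE), and it was not called without OGP 1, without OGE 2 or with the length trend removed. Without OGP 1 2 members were lower and without OGE 2 1 was. Bcl2 had 15.9, 14.5 and 13.8 FPKM in OGP and 12.6, 12.2 and 14.4 in OGE, and Bax had 37, 34.4 and 39.4 in OGP and 36.7, 30.4 and 39.5 in OGE. For Bcl2 and Bax the groups overlapped.

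**Figure D4:**
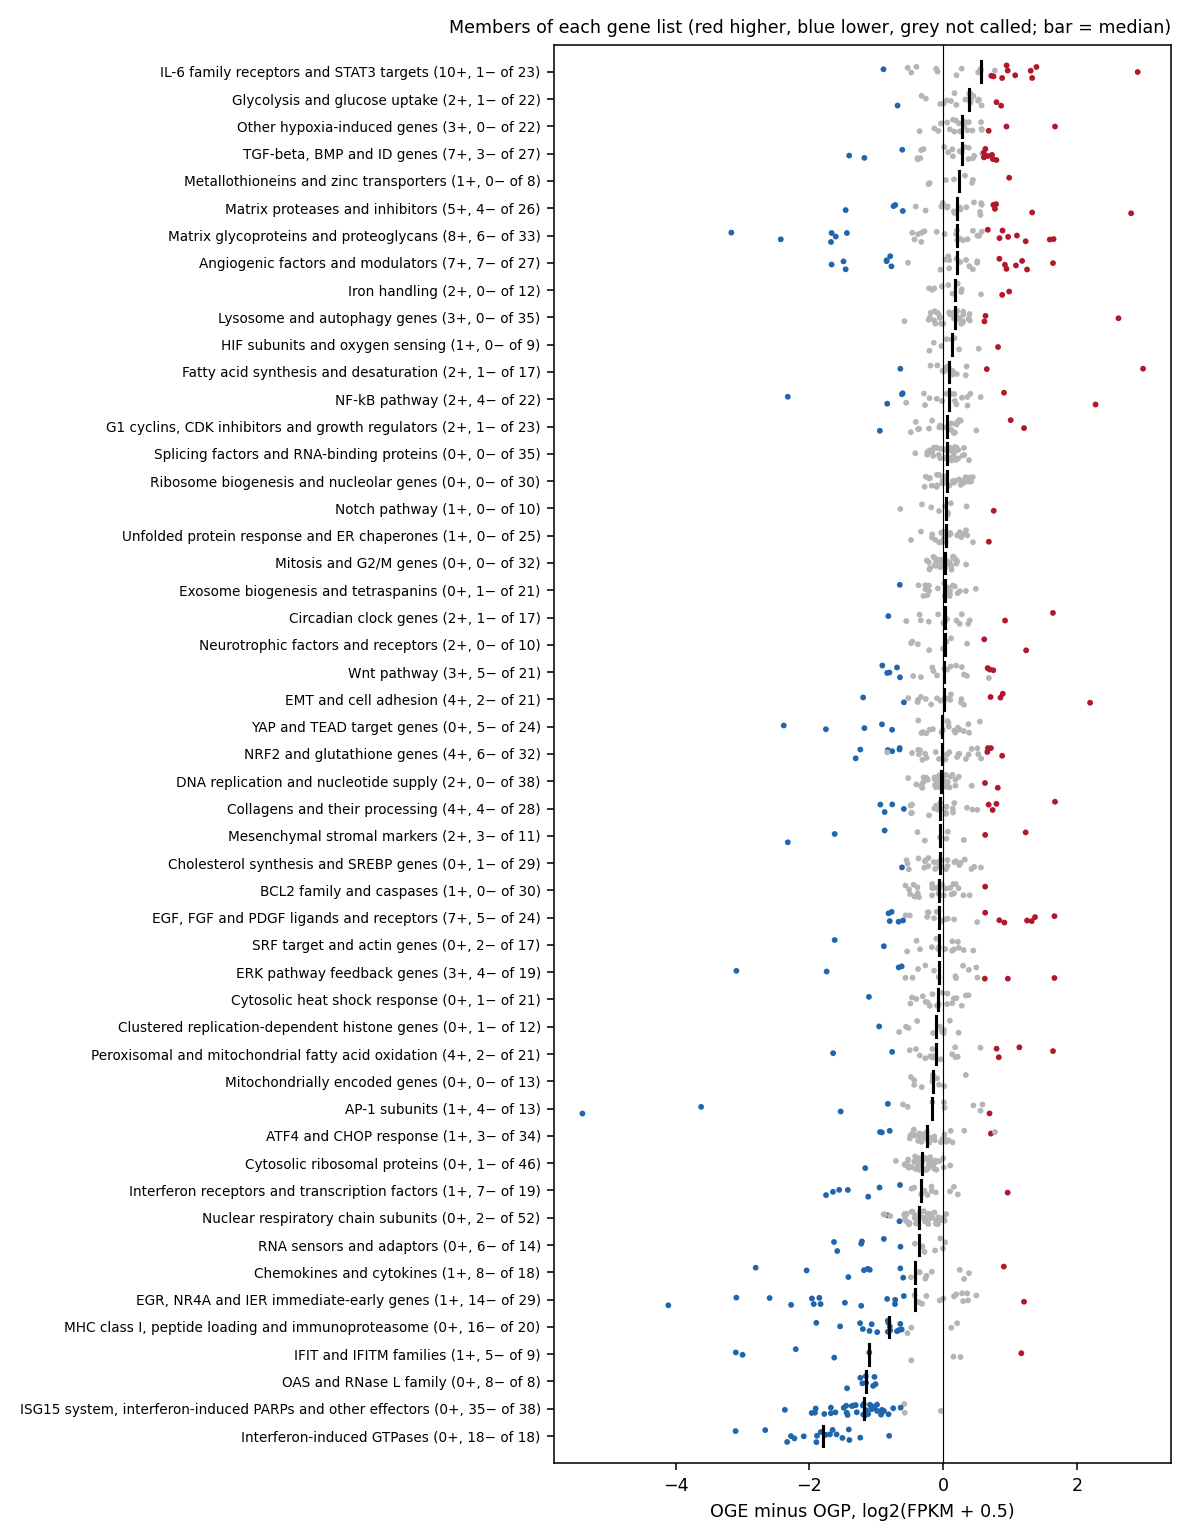
OGE minus OGP difference in log2(FPKM + 0.5) of each tested member (points) of the gene lists with at least 8 tested members, ordered by their median (black bar). Red points are DEGs higher in OGE, blue points DEGs lower and grey points genes not called, and the label gives the counts called higher and lower of those tested. Interferon-induced GTPases lie lowest at a median of -1.79.

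On the median, short genes were lower in OGE and long genes higher. Protein-coding genes in the shortest of 10 bins (45 to 1716 bases, 1104 genes) had a median log2 fold change of -0.25, with 31 higher and 114 lower, and the longest (9851 to 123179 bases, 1101 genes) a median of 0.18, with 71 higher and 16 lower. Relative to the mean of the 6 libraries, the shortest bin stood at 0.07 to 0.18 in the OGP libraries and at -0.16 to -0.09 in the OGE libraries. With this trend removed, the medians were -0.08 and near 0, 981 DEGs were called (429 higher and 552 lower), and 853 of the 1075 DEGs were called the same way. Its origin was not tested. With the trend removed, 93 of the 125 interferon and MHC class I genes were called lower. Of the 61 immediate-early genes 18 were then called lower and 5 higher, and these 5 were not all the same genes as before.

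**Figure D5:**
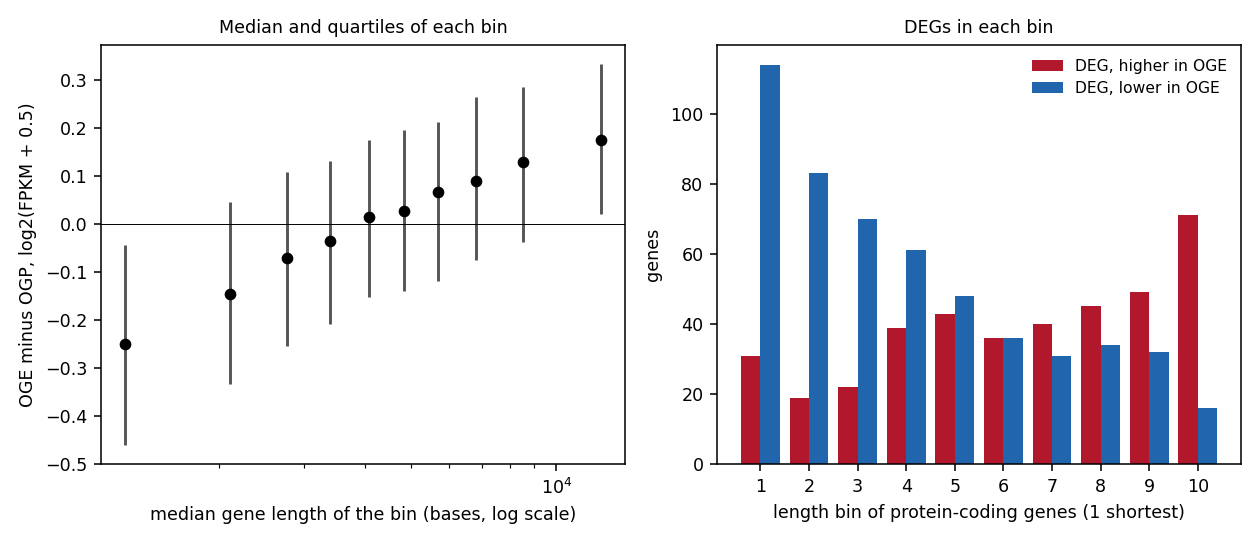
Protein-coding genes in 10 bins of equal size by gene length. The left panel gives the median and quartiles of the OGE minus OGP difference in log2(FPKM + 0.5) against the median length (log scale), rising from -0.25 in the shortest bin to 0.18 in the longest, and the right panel counts DEGs higher (red) and lower (blue) in each bin, 31 and 114 in the shortest and 71 and 16 in the longest.

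The trend bears on sets of short genes. Ribosomal protein genes (46 tested, median length 1906 bases) had a median of -0.32, and 37 had all OGE libraries below all OGP libraries, against 22.0% of all genes, but 1 was called, Rps27a, whose call was lost when any 1 of 5 of the 6 libraries was left out. Rps27, a ribosomal protein gene outside that list, was also called, with 269.6, 482 and 568 FPKM in OGP and 172, 134 and 264 in OGE (fell by 1.20 ± 0.36, adjusted p 0.0445), and its call was lost without OGP 2, OGP 3, OGE 1, OGE 2 or control replicate 3 and with the length trend removed. Rps27a and Rps27 have close copies that may share their reads. Rplp0 had 1984, 2027 and 1982 FPKM in OGP and 1681, 1601 and 1834 in OGE. With the length trend removed the median of these genes was -0.21. Of 52 nuclear genes of the respiratory chain 2 were lower (Ndufa5 and Uqcrb, at -0.83 ± 0.13 and -0.66 ± 0.13), and the median was -0.36, or -0.23 with the trend removed. That count went from 1 without OGE 2 to 11 without OGP 1, with 6 without OGE 1 and 5 without OGE 3. None of the 13 mitochondrially encoded genes was called by limma or by voom. In limma 0 of them had an unadjusted p under 0.05, against 4601 of all 13245 tested genes. For example, mt-Co1 had 6733, 9202 and 8319.7 FPKM in OGP and 7132, 7446 and 4966 in OGE. Mitochondrial transcripts took 2.90% ± 0.406 of reads in OGP and 2.58% ± 0.479 in OGE (SD, n = 3).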

How the data were processed

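RNA of HT22 cells was sequenced in 9 libraries, 3 each of control, OGP and OGE cells. The authors aligned reads to mm10 with HISAT2 2.0.5, counted them per gene with featureCounts and deposited FPKM per gene for each library, the unit used here. Whether counting used strand is not stated. FPKM was multiplied by gene length, and 100% of values fell within 0.1 of a whole number of reads, which gave the depth. Genes whose average across the 9 libraries reached 0.5 FPKM were tested on log2(FPKM + 0.5) with limma 3.58.1 in R 4.3.3 (all 9 libraries, 3 group means, variance trend), with Benjamini-Hochberg adjustment over 13245 genes. Alternatives were other pseudocounts, filters and scalings, voom on the recovered reads, each library left out, and, added after the data were seen, a removed gene-length trend. Replicate numbers did not pair the libraries. Scripts were tested on simulated data.

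The gene lists (59) and members were chosen with earlier results of these data known. Genes named were the 20 largest and 20 smallest protein-coding changes, the 10 most abundant DEGs in each direction, up to 6 genes of smallest p in each list, all members of 4 lists (AP-1 subunits, interferon receptors and factors, HIF subunits, study regulators), and the 10 largest noncoding changes without overlap. Other named genes were chosen after their values were seen. Promoters came from RefSeq (GRCm38.p6) and were matched by symbol for 9194 genes. 207 symbols occur more than once, and the model with the highest mean was used. Some genes are not reported here.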

Additional observations from a re-analysis of the deposited data

How the results depend on the processing

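The number of DEGs depended mainly on the fold limit. Without one, 2750 genes were called (1400 higher and 1350 lower), and with a limit of 2 fold 393 (135 and 258). Leaving out each library in turn gave 889 to 1181 DEGs, 361 to 530 higher and 521 to 693 lower. A fit with the replicate number as a block gave 1043 DEGs (438 higher and 605 lower). The replicate numbers gave residual correlations of -0.086, 0.067 and -0.096 between OGP and OGE, so they were not taken as pairs. voom on recovered reads gave 1296 DEGs (617 and 679). Of 376 genes taken by the naming rule 226 were DEGs. Among the 23 settings that kept the fold limit, 188 of these were called in every setting that tested them, and 38 lost the call at least once. Some settings, such as protein-coding genes alone, did not test every named gene. None changed sign while called. A gene near 0.5 FPKM rests on a median of about 13 reads, and a short gene at that level on fewer. Having 3 libraries a group limits the precision of each value.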

Other observations

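Some of the largest changes belonged to genes outside the lists above. Of the 449 higher DEGs 353, and of the 626 lower DEGs 430, were in none of the lists. Prss46, a serine protease gene on chromosome 9 (110844506 to 110856522, plus strand), was the only gene at least 8 fold higher, with 0.413, 0.272 and 0.183 FPKM in OGP and 11.2, 11.8 and 9.43 in OGE (rose by 3.85 ± 0.13, adjusted p 8.57e-07). Hmga2, a chromatin protein of embryonic and tumour cells, had 12.9, 10.9 and 13.2 FPKM in OGP and 38.4, 38.5 and 47.1 in OGE. Adarb1, an enzyme that edits adenosine in RNA, had 5.63, 4.76 and 4.58 FPKM in OGP and 16.5, 17.3 and 18.8 in OGE. All 3 genes were separated completely between the groups, with control means of 2.52, 3.49 and 5.65 FPKM. Pmepa1, a TGF-beta target that restrains its pathway, rose by 1.67 ± 0.10. Among the falls, Abi3bp, a matrix protein, had 26.8, 32.9 and 30.5 FPKM in OGP and 4.84, 6.03 and 3.55 in OGE, and Ripply1 had 2.18, 2.94 and 2.2 in OGP and 0, 0 and 0.0795 in OGE. Anxa1, annexin A1, had 546, 710.1 and 698 FPKM in OGP and 297, 307 and 252 in OGE (fell by 1.18 ± 0.14).

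Smaller groups gave the following values. Of 35 lysosome and autophagy genes 3 were higher, among them the protease Ctsw with 1.02, 0.694 and 1.3 FPKM in OGP and 8.55, 8.2 and 9.05 in OGE. Of 17 clock genes 2 were higher and 1 lower, or 2 lower without OGE 3. Bhlhe40, a repressor that is both a clock gene and hypoxia-induced, had 11.8, 12.3 and 12.4 FPKM in OGP and 39.2, 41.7 and 36 in OGE (rose by 1.64 ± 0.08, adjusted p 3.98e-06). Of 7 tested cornified-envelope and keratin genes 4 were higher and 2 lower. Sprr1a had 1.69, 1.44 and 2.36 FPKM in OGP and 4.94, 4.84 and 4.16 in OGE, and its control mean of 26.4 FPKM was above both groups. S100a6, an abundant calcium-binding protein, had 1269, 1374 and 1374 FPKM in OGP and 746, 761 and 904 in OGE, and its call was lost with no filter on low values, with quantile normalization and with the gene-length trend removed. Of 21 genes for exosome biogenesis and tetraspanins 1 was called, Cd82, which fell by 0.65 ± 0.11. No gene of 35 splicing factors or of 30 ribosome biogenesis genes was called by limma or voom. In limma 8 and 14 of them had an unadjusted p under 0.05, against 4601 of all 13245 tested genes.

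Of 2242 tested genes not annotated as protein-coding 155 were DEGs (6.91%, against 8.12% of all tested genes), 54 higher and 101 lower, and 64 of these overlapped no other gene. Polymorphic pseudogenes gave 1 of the higher and 5 of the lower DEGs. The lower were Mx2 (-1.69), Gbp11 (-1.59), Cxcl11 (-1.10), Oas1b (-1.03) and H2-T10 (-0.98). The set is therefore not separate from the lists above, where Cxcl11 is also given. The count of 155 also includes miRNA (5 higher and 3 lower), snRNA (7 and 1) and snoRNA (3 and 3) genes. Such genes are short, so their low values rest on few reads. Mir6913, of 66 bases, had 0.765, 0 and 0 FPKM in OGP and 4.25, 0.895 and 6.83 in OGE. Mir6913 overlaps Dohh and Gm48551, so its reads may come from their transcripts. Gm12250, on chromosome 11 (58187739 to 58189012, plus strand), had 14.7, 20.9 and 17.6 FPKM in OGP and 0.924, 0.649 and 0.556 in OGE (fell by 3.91 ± 0.16, adjusted p 2.09e-06). The annotation used labels it a processed pseudogene, and whether it encodes a protein was not examined. Gm2666 and Gm15433, with the same label on chromosome 1, fell by 2.27 ± 0.15 and 1.90 ± 0.15. Reads of pseudogenes may be shared with their parent genes. The AP-1 core TGANTCA was present on either strand in the promoters of 10.6% of lower DEGs (45 of 426), 7.87% of higher DEGs (24 of 305) 4.64% of all matched promoters of tested genes and 7.81% of all 32851 promoters in the table.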
